A study of Mus musculus with 37 samples.

Results

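The transcripts described here are 7 acute phase genes measured in brown adipose tissue (BAT), namely *Hp*, *Saa1*, *Saa2*, *Saa3*, *Lcn2*, *Orm1* and *Hamp*. They were chosen by gene symbol, each symbol was found with 1 probe set, and they are 7 of 24657 named genes on the array. The arrays came from 35 BXD strains, recombinant inbred lines descended from C57BL/6J and DBA/2J, and from these 2 parental strains. All were male mice aged 29 weeks by the labels and kept on chow. The authors describe an overnight fast and perfusion before tissue collection for the BXD cohorts, and do not name the parental strains there. Each strain is represented by 1 array, hybridised with RNA pooled from about 5 mice, so the spread between mice of a strain cannot be seen and the strains serve as the replicates. The groups are therefore the BXD strains (n = 35), C57BL/6J (n = 1) and DBA/2J (n = 1).

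Acute phase proteins are plasma proteins whose production shifts during inflammation, and hepatocytes are their main source, driven by interleukin 6, interleukin 1 and glucocorticoids through the STAT, NF-kB and C/EBP factors. Some are also made outside the liver, since adipocytes release haptoglobin and lipocalin 2, and mouse *Saa3* is known as the serum amyloid A of adipose tissue and macrophages. Hepcidin, the product of *Hamp*, is the hormone that lowers iron export and is made mainly by hepatocytes.

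Liver transcripts were raised on a pair of the arrays, BXD70 and DBA/2J. A list of 14 liver genes, among them *Alb* and *Ttr*, was read on each array as the gap to the median of 34 BXD strains, the strain BXD70 being left out. Values are in rescaled units, in which every array has mean 8 and SD 2. In BXD70 all 14 liver genes lay at least 1 unit above that median and above all 34 strains, with a median gap of 3.25 units. *Alb*, which encodes albumin, stood at 14.96 in BXD70 and at 13.93 in DBA/2J, while the 34 strains ran from 7.34 through a median of 7.84 to 11.16. In DBA/2J 10 of the 14 genes were at least 1 unit up and 13 were above all 34 strains, with a median gap of 1.36. In C57BL/6J 0 of 14 were at least 1 unit up. The mean of the liver list over its genes was 10.82 in BXD70, 9.31 in DBA/2J and 7.55 in C57BL/6J, and among the 34 strains it ran from 7.23 in BXD103 to 8.04 in BXD66. Of the 14 liver genes, 8 had means at background in the 34 strains. BXD70 was therefore left out of the comparisons across strains.

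*Hp* encodes haptoglobin, the plasma protein that binds free haemoglobin. Over the 34 strains *Hp* (probe set 17512809) ran from 12.53 in BXD55 through a median of 13.26 to 13.88 in BXD68, with a mean of 13.24 ± 0.35 (SD, n = 34). All 34 strains lay above background, taken as 7.94, the 95th percentile of 1128 olfactory receptor probe sets. BXD70 at 13.56, DBA/2J at 13.24 and C57BL/6J at 13.39 all fell inside the range of the 34 strains. The *Hp* value of DBA/2J differed from the median by -0.02 units.

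*Orm1* encodes orosomucoid, a carrier protein of plasma. *Orm1* (probe set 17414729) ran from 9.74 in BXD85 through a median of 10.57 to 11.90 in BXD56, with a mean of 10.61 ± 0.39 (SD, n = 34), and was above background in all 34 strains. It stood at 11.27 in BXD70, 11.08 in DBA/2J and 11.31 in C57BL/6J. These 3 arrays lay in the upper part of the strains but below BXD56. The mouse has the close relatives *Orm2* and *Orm3*, whose RNA may reach the same probes, which was not tested.

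*Lcn2* encodes lipocalin 2, which binds bacterial siderophores and so withholds iron. *Lcn2* (probe set 17383892) ran from 7.88 in BXD43 through a median of 8.22 to 8.89 in BXD61, with a mean of 8.23 ± 0.23 (SD, n = 34), and 30 of 34 strains were above background. At the 99th percentile of the olfactory receptor probe sets, 8.82, BXD61 alone of the 34 strains was above. BXD70 was at 9.17, above all 34 strains, with a gap of 0.95 units to their median. DBA/2J at 8.37 and C57BL/6J at 8.12 were inside the range.

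The serum amyloid A genes encode small apolipoproteins carried on high density lipoprotein. *Saa3* (probe set 17491193) ran from 7.10 in BXD83 through a median of 7.51 to 8.84 in BXD97, with a mean of 7.65 ± 0.47 (SD, n = 34), and rose above background in 7 of 34 strains. BXD70 was at 9.24, above all 34 strains, while DBA/2J at 7.54 and C57BL/6J at 7.20 were not. So most strains gave *Saa3* values at background, and a minority that included BXD97, BXD85 and BXD79 lay above that limit. At the 99th percentile of the olfactory receptor probe sets, 8.82, BXD97 alone of the 34 strains was above.

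*Saa1* and *Saa2* were at background in all 34 strains. *Saa1* (probe set 17491205) ran from 4.81 in BXD50 through a median of 5.12 to 5.72 in BXD85, and *Saa2* (probe set 17478195) from 4.52 in BXD83 through a median of 5.27 to 6.30 in BXD96. *Saa1* was at 5.17 in BXD70, 5.62 in DBA/2J and 4.92 in C57BL/6J, all inside the range. *Saa2* was at 5.95 in BXD70, 5.55 in C57BL/6J and 7.04 in DBA/2J, the last of which was above all 34 strains yet still under the background limit. RefSeq lists each of these names as an older name of the other gene, so which of the pair a probe set reads cannot be told apart here.

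*Hamp* (probe set 17489363) was also at background in all 34 strains, from 4.47 in BXD64 through a median of 5.15 to 6.35 in BXD55. BXD70 was at 11.64, a gap of 6.49 units to the median, whereas the range of the 34 strains was 1.88 units. That median is under the background limit, so the gap is not an exact size. DBA/2J was at 6.33, just below the highest strain, and C57BL/6J was at 5.20. *Hamp2*, a closely related gene, followed another order, with 10.19 in BXD81, 6.35 in BXD70 and a median of 6.07.

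**Figure D1:**
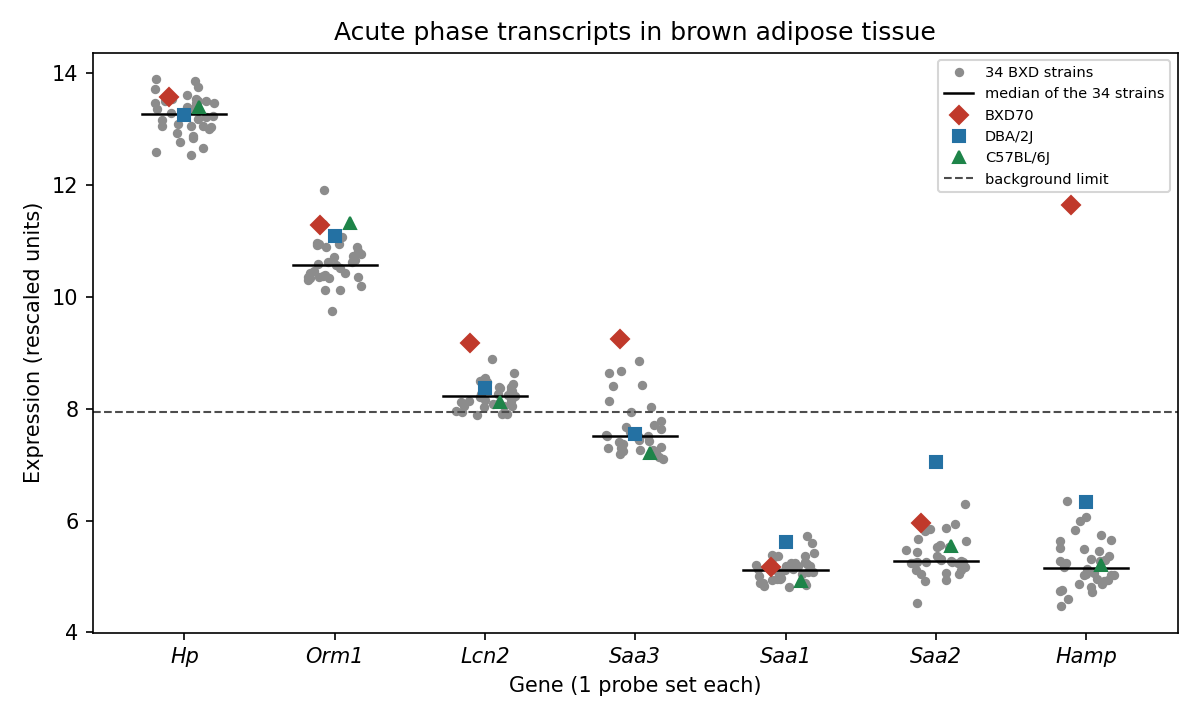
Expression of the 7 genes in rescaled units, with 1 grey point for each of 34 BXD strains, a bar at their median, coloured symbols for BXD70, DBA/2J and C57BL/6J, and a dashed line at the background limit of 7.94. BXD70 stands above all 34 strains for *Lcn2*, *Saa3* and *Hamp*, and DBA/2J for *Saa2*; sideways shifts of the points carry no value.

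Taking a gap of at least 1 unit above the median as raised, 2 of the 7 genes were raised in BXD70, *Saa3* and *Hamp*, against 1.14% of all probe sets. In DBA/2J 2 of 7 were raised, *Saa2* and *Hamp*, against 0.377% of all probe sets, and in C57BL/6J 0 of 7, against 0.935%. Read instead as a value above all 34 strains, which more probe sets met on each of these arrays, BXD70 had 3 genes, *Saa3*, *Lcn2* and *Hamp* (3.15% of all probe sets), DBA/2J had 1, *Saa2* (1.47%), and C57BL/6J had 0 (3.37%). These are single arrays, so no test was made and there is no replicate check.

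The gaps to the median in BXD70 and in DBA/2J were 6.49 and 1.17 units for *Hamp*, 1.73 and 0.03 for *Saa3*, 0.95 and 0.15 for *Lcn2*, and 0.70 and 0.51 for *Orm1*. They were 0.68 and 1.77 for *Saa2*, 0.30 and -0.02 for *Hp*, and 0.05 and 0.50 for *Saa1*. The values of *Saa1* and *Saa2* on both arrays, and those of *Hamp* and *Saa3* in DBA/2J, were under the background limit. The medians of *Hamp*, *Saa1*, *Saa2* and *Saa3* were also under it, so gaps to them are not exact sizes. Whether the raised values came from liver RNA was not tested. A list of 22 other acute phase genes had 11 raised in BXD70 and 7 in DBA/2J, among them *Fgb*, a fibrinogen chain, with gaps of 4.18 and 2.29 units, and *Saa4*, a constitutive serum amyloid A, with gaps of 2.91 and 2.42. The medians of *Fgb* (6.725) and *Saa4* (6.816) were under the background limit too. *Il1b*, which encodes interleukin 1 beta, was at 9.14 in BXD70 against a highest value of 8.45 among the 34 strains, and at 7.27 in DBA/2J. It was the 1 gene raised in BXD70 from a list of 16 inducing signals, whose median gap there was -0.04. The macrophage list, 8 genes that include *Cd68* and *Lyz2*, differed from the median by 0.10 units in BXD70 and the list of 10 neutrophil genes by 0.18, with a median gap of 0.06 over its genes. Of these, *Ly6g* and *Retnlg* lay above all 34 strains there, both under the background limit. The brown fat list differed by 0.51 units, with 3 of 10 genes raised, *Elovl3*, *Dio2* and *Ppargc1a* (gaps of 1.56, 1.52 and 1.21), the last pair above all 34 strains, and the skeletal muscle list by -0.72. The part of liver, of *Il1b* or of these cells in the *Saa3* and *Lcn2* values of BXD70 was not tested.

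**Figure D2:**
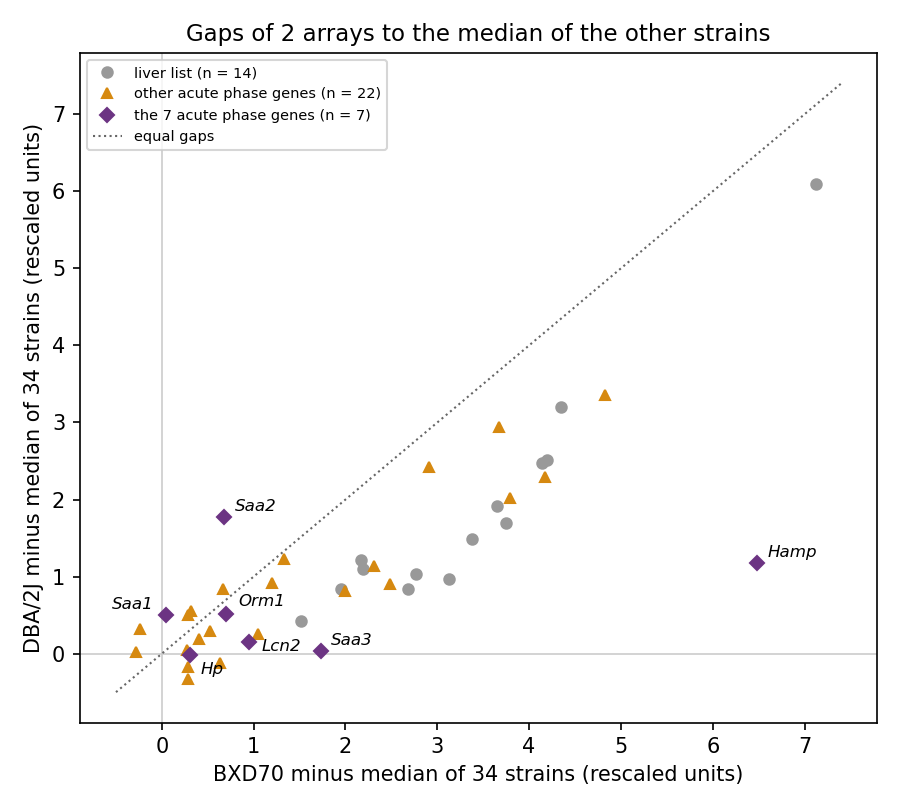
Each point is a gene, placed by its gap to the median of 34 strains in BXD70 (horizontal) and in DBA/2J (vertical), both in rescaled units, for 14 liver genes, 22 other acute phase genes and the 7 genes described; the dotted line marks equal gaps. The DBA/2J gaps of *Hamp*, *Saa3* and *Lcn2* are 1.17, 0.03 and 0.15, below the line, and *Saa2* lies above it; some points are values under the background limit.

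Across the 34 strains, *Lcn2* had positive correlations with *Hp* and with *Saa3*, but neither pair was called by the rule set for a pair. Each gene was used in turn as a continuous covariate in limma over all probe sets, and a pair was called where both of its fits passed an adjusted p of 0.05. By that rule 0 of 21 pairs were called, while 5 of 21 had an unadjusted p under 0.05 in both fits, a level that 5.61% (*Hamp*) to 13.5% (*Lcn2*) of all probe sets reached in the single fits. With *Lcn2* as the covariate, *Hp* passed at a limma adjusted p of 0.0376 and *Saa3* at 0.0443, in a fit that called 1.56% of all probe sets. The reverse fits missed, *Lcn2* reaching a limma adjusted p of 0.0845 on *Hp*, where 0.338% were called, and 0.0732 on *Saa3*, where 0.702% were called. Of 13 alternatives, 6 ended the call of *Hp* on *Lcn2*, among them BXD70 included (limma adjusted p = 0.0836), quantile normalization (0.0538), median centring, the first principal component as a second covariate and the 2 farthest strains left out (0.103), and 7 ended that of *Saa3* on *Lcn2*, among them quantile normalization (0.076). With the macrophage list as a second covariate, an alternative chosen after seeing the data, these values were 0.416 and 0.702. Leaving out a single strain ended the call of *Hp* for 8 strains, BXD43, BXD61, BXD65, BXD68, BXD69, BXD83, BXD89 and BXD90 (up to 0.0839). It ended that of *Saa3* for 21 strains, BXD43, BXD45, BXD48, BXD55, BXD61, BXD64, BXD66, BXD69, BXD79, BXD83, BXD84, BXD85, BXD89, BXD90, BXD92, BXD96, BXD97, BXD98, BXD99, BXD101 and BXD103 (up to 0.169).

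For *Hp* and *Lcn2*, Pearson's r was 0.554 (permutation p = 0.0006) and Spearman's rho was 0.561 (permutation p = 0.00082), and r was 0.535 without the 2 strains farthest from the median of *Hp*. For *Saa3* and *Lcn2*, r was 0.537 (permutation p = 0.00095) and rho was 0.516 (permutation p = 0.00233), and r was 0.526 without the 2 farthest strains. *Hp* and *Saa3* gave r of 0.464 (permutation p = 0.00586) and rho of 0.507 (permutation p = 0.00249), with 0.411 after the 2 were left out. All 3 values were positive, among 21 pairs computed. *Saa3* and *Orm1* ran opposite ways, with r of -0.456 (permutation p = 0.00721) and rho of -0.394 (permutation p = 0.0214), and r moved to -0.282 without BXD97 and BXD85, so much of that relation rested on those strains. With BXD70 included, r for this pair was -0.238. *Saa1* and *Saa2* had r of -0.183 (permutation p = 0.299) and rho of -0.010 (permutation p = 0.954), with -0.079 without the 2 farthest, both genes being at background.

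With BXD70 included, 2 pairs were called, *Saa3* with *Lcn2* and *Lcn2* with *Hamp*. The *Lcn2* and *Hamp* values gave r of 0.605 with that strain and 0.239 (permutation p = 0.173) without it, where rho was 0.321 (permutation p = 0.0637). For *Saa3* and *Hamp* r was 0.489 with BXD70 and 0.065 (permutation p = 0.716) without it, where rho was also 0.065 (permutation p = 0.713). The relation of *Hamp* to both genes therefore rested on 1 array. In these 35-strain fits limma called 0.0243% of probe sets for *Saa3*, 0.185% for *Lcn2* and 0.656% for *Hamp*.

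*Lcn2* and *Saa3* rose with the macrophage list, the one list of 8 that called any of the 7 genes over the 34 strains. That list was above background for 8 of 8 genes, with *Lyz2* the brightest, and its mean ran from 8.80 in BXD87 to 10.69 in BXD61. With the list mean as the covariate limma called 2 of the 7 genes, *Saa3* (adjusted p = 0.00521) and *Lcn2* (adjusted p = 0.00643), against 3.34% of all probe sets. *Saa3* gained 0.77 units and *Lcn2* 0.38 units for each unit of the list. These slopes are not exact sizes, since *Saa3* was above background in 7 of 34 strains and *Lcn2* lay close to the limit. For *Saa3*, r was 0.609 (permutation p = 0.00012) and rho was 0.678 (permutation p = 3e-05), with r of 0.544 without BXD61 and BXD87. For *Lcn2*, r was 0.617 (permutation p = 0.00014) and rho was 0.541 (permutation p = 0.00125), with r of 0.509 without those strains. The *Lcn2* call was lost when BXD61 alone was left out, at a limma adjusted p of 0.128, and with both strains out at 0.0912. In bulk tissue, more cells of a type and more RNA per cell cannot be told apart.

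**Figure D3:**
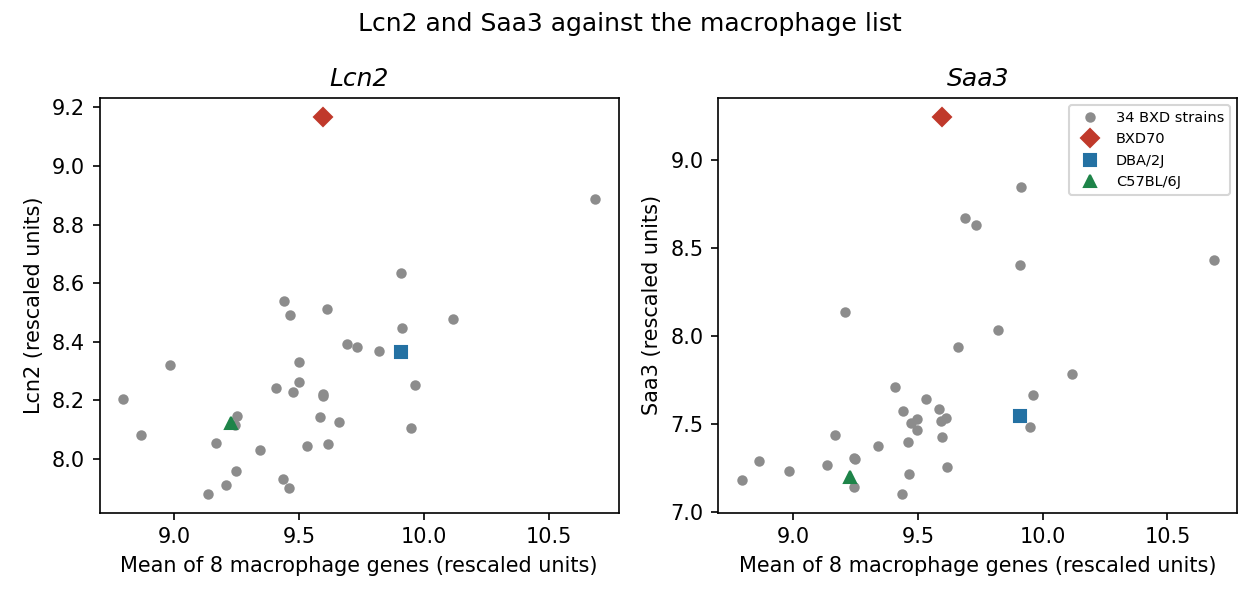
*Lcn2* (left) and *Saa3* (right) against the mean of 8 macrophage genes, all in rescaled units, with 1 point per strain and coloured symbols for BXD70, DBA/2J and C57BL/6J. The BXD61 array lies farthest right at 10.69, and BXD70 stands above all other strains for both genes at a list mean of 9.60.

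The other lists called 0 of the 7 genes with limma over 34 strains. For white fat, 6 genes that include *Lep* and *Retn*, *Lcn2* came closest at an adjusted p of 0.0529, with 1.33% of all probe sets called. At an unadjusted p under 0.05 there were 4 of 7 genes, *Hp*, *Saa3* and *Lcn2* upward and *Saa1* downward (r of -0.349), against 15.4% of all probe sets. For the liver list, 0.068% of probe sets were called, and 1 of 7 genes, *Hamp*, had an unadjusted p under 0.05, as did 10.2% of all probe sets. *Hamp* and the liver list gave r of 0.517 (permutation p = 0.0021) and rho of 0.497 (permutation p = 0.00297), with r of 0.532 without BXD66 and BXD90, at a limma adjusted p of 0.255. With BXD70 included, *Hamp* (limma adjusted p = 1.08e-15) and *Lcn2* (limma adjusted p = 0.0323) were called on the liver list, against 0.675% of probe sets. The brown fat list, led by *Ucp1*, called 1.78% of probe sets, the skeletal muscle list 1.84% and the mesothelial list 4.42%, with 1 of 7 genes each at an unadjusted p under 0.05. These were *Hamp* for brown fat (r of 0.370) and for muscle (-0.453, or -0.240 with BXD70) and *Saa1* for the mesothelial list (-0.430), where 15.7%, 11.1% and 21.7% of all probe sets reached that level. For *Saa1* and the mesothelial list, r was -0.127 without BXD83 and BXD85, and rho was -0.210 (permutation p = 0.235). With *Hamp* as the covariate 11 of 11 muscle genes had an unadjusted p under 0.05 (median r of -0.45), against 5.61% of all probe sets. Each of these 11 genes was lowest in BXD65 and highest in BXD97, so they are not 11 separate relations. For *Hamp* and the muscle list, r was -0.345 without BXD65 and BXD95, and rho was -0.396 (permutation p = 0.0218). Of these muscle genes 0 were called, *Hamp* being at background. The lymphocyte list called 0.16% of probe sets and the neutrophil list 0%, again with 1 of 7 genes each at the unadjusted level, *Hp* and *Saa2*, against 9.78% and 15.6% of all probe sets. Of the 10 neutrophil genes 9 had means at background, as did 5 of 6 lymphocyte and 5 of 6 mesothelial genes. Of the brown fat genes 10 of 10 were above background, with *Ucp1* at 15.36 ± 0.23 (SD, n = 34), while the muscle list was also above background for 11 of 11 genes and ran from 9.87 in BXD65 to 13.63 in BXD97. The adipocyte list, 5 genes led by *Fabp4*, was read for its level only, with a mean of 13.02 ± 0.13 (SD, n = 34).

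The acute phase pathway was followed in 58 further genes, in 4 lists of other acute phase genes, inducing signals, iron regulation and receptors. Of 406 relations of these genes to the 7, limma called 9 (2.22%), and 70 (17.2%) had an unadjusted p under 0.05. Over all probe sets the same 7 fits called 0.43%, with 9.69% at that unadjusted level. *Lcn2* had 4 of the 9, all upward. They were *Lbp*, which encodes the lipopolysaccharide binding protein, at 1.81 units per unit of *Lcn2* (adjusted p = 0.00979), *Lrg1*, a leucine-rich glycoprotein of plasma, at 0.69 (adjusted p = 0.0287), *Orm2*, whose mean of 7.91 is under the background limit, at 1.01 (adjusted p = 0.0382), and *Osmr*, the oncostatin M receptor, at 0.69 (adjusted p = 0.0416). *Saa3* had *Lbp* at 0.85 units per unit (adjusted p = 0.0201) and *Steap4*, a metalloreductase of adipocytes, at 0.43 (adjusted p = 0.0139). *Hp* had *Steap4* at 0.64 (adjusted p = 0.00649). Without BXD61, and likewise without BXD97, 4 of the relations in this family were called in place of 9, and 0 were called with the macrophage list as a second covariate. Single strains also ended calls, 14 of 34 for *Osmr* (limma adjusted p up to 0.274) and 9 for *Orm2* (up to 0.288), which was also lost in 7 of 12 alternatives, quantile normalization among them (0.058). *Lrg1* on *Lcn2* was lost without any of 4 strains (up to 0.157) and *Lbp* on *Saa3* without BXD61, BXD92 or BXD97 (up to 0.0929). *Lbp* on *Lcn2* was lost without BXD61 (0.0638) and *Steap4* on *Saa3* without BXD97 (0.0623). Of 13 alternatives, 7 ended the call of *Osmr* and 6 that of *Lrg1*. With BXD70 included 5 of the 9 were lost, *Lbp* (limma adjusted p = 0.0717), *Lrg1* (0.0717) and *Osmr* (0.198) on *Lcn2* and *Lbp* (0.109) and *Steap4* (0.202) on *Saa3*.

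*Orm1* was the exception in direction in the main fits, though not under every alternative. Its calls were *Il6st*, the signalling receptor of interleukin 6, at -0.21 units per unit of *Orm1* (adjusted p = 0.0398), and *Lrp1*, an endocytic receptor, at -0.43 (adjusted p = 0.027), from a limma fit that called 0.408% of all probe sets. Both were lost without the 2 strains farthest in *Orm1*, at limma adjusted p of 0.0987 and 0.133, and *Il6st* also without any of 11 single strains (up to 0.153) and *Lrp1* without BXD45 or BXD85 (up to 0.0944). By list, the iron genes had 0 of 12 called for any of the 7, and *Orm1* had 6 of those 12 at an unadjusted p under 0.05, against 10.9% of all probe sets for *Orm1*, with a median r of -0.06 over the list. That 0 depends on the setting. *Slc40a1*, the iron exporter ferroportin, had a slope of -0.57 on *Orm1* (limma adjusted p = 0.0607) and was called in 7 of 13 alternatives, BXD70 included among them (0.0463), and without BXD55, BXD62, BXD65, BXD71 or BXD98 (down to 0.0276). With BXD70 *Tmprss6*, a protease that lowers hepcidin expression, was called on *Hamp* (0.0322). For *Saa1*, *Saa2* and *Hamp* limma called 0% of all probe sets each, with 3908, 2445 and 2310 of 41154 at an unadjusted p under 0.05.

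The white fat gene *Lep*, which encodes leptin, rose with *Hp* at 2.18 units per unit (limma adjusted p = 0.0158), with *Saa3* at 1.43 (adjusted p = 0.0322) and with *Lcn2* at 3.46 (adjusted p = 0.00287). *Lep* itself ran from 9.08 in BXD43 to 13.38 in BXD61, the same strains that were lowest and highest for *Lcn2*. Over the 6 genes of that list the median r was 0.04 for *Hp*, -0.05 for *Saa3* and 0.17 for *Lcn2*, with 1, 2 and 1 called, and *Retn* had r of -0.552, -0.503 and -0.440. With BXD70 included *Lep* missed the threshold on *Lcn2* (limma adjusted p = 0.0525) and on *Saa3* (0.139), the latter being lost also without BXD61, BXD92 or BXD97 (up to 0.0901), with the first principal component as a second covariate (0.0592) and without the 2 farthest strains (0.0654). With the macrophage list as a second covariate *Lep* was lost on *Hp* (0.21), *Saa3* (0.999) and *Lcn2* (0.256). Of the 8 macrophage genes, 5 passed with *Lcn2* and 4 with *Saa3*, in fits that called 1.56% and 0.702% of all probe sets. Among them was *Cd68* at 1.65 and 0.72 units per unit (limma adjusted p = 0.008 and 0.036, or 0.102 and 0.186 with BXD70). Leaving out BXD61 ended all 5 calls with *Lcn2* (*Cd68* at a limma adjusted p of 0.0974) and those of *Cd68*, *Emr1* and *Mpeg1* with *Saa3*. With *Saa3*, *Cd68* was lost without any of 10 single strains (limma adjusted p up to 0.121) and *Emr1* without any of 15 (up to 0.137). With BXD70 included 0 of those 5 passed with *Lcn2*, and of the 4 with *Saa3* *Lyz2* alone did (limma adjusted p = 0.0401). *Psat1*, an enzyme of serine synthesis on the white fat list, passed with *Saa3* (limma adjusted p = 0.0459) but was lost in 7 of 13 alternatives, BXD70 included among them (0.287), and without any of 22 single strains (up to 0.145).

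Among 13536 genes with means above background, likeness to each of the 7 over the 34 strains was read as Pearson's r, as a description. For *Orm1* the most alike were *Tecr* (0.845) and *Me1* (0.775), enzymes of fatty acid elongation and of NADPH supply, and *Slc25a1* (0.755), the mitochondrial citrate carrier, and the least alike was *Hnrnpa1* (-0.738). For *Saa3* they were *Ear2* (0.813), *Cd9* (0.748) and *Slc37a2* (0.744), with *2400009B08Rik* at the other end (-0.722). *Lcn2* was closest to *Rbms3* (0.768), *F2r* (0.751) and *Myo1c* (0.748), and farthest from *Crls1* (-0.762), the cardiolipin synthase. *Hp* was closest to *Akap2* (0.748), *Trim67* (0.744) and *Hspg2* (0.739), and farthest from *Aldh9a1* (-0.677). *Saa1* was paired in this way with *Lysmd3* (0.675), *Igkv4-72* (0.591), *Fam53b* (0.570) and *Pllp* (-0.642), and *Saa2* with *Mlst8* (0.612), *Tmem120a* (0.608), *Rdh13* (0.607) and *Rel* (-0.616). *Hamp* was closest to *Poglut1* (0.621), *Ppargc1a* (0.609) and *3010033K07Rik* (0.604) and farthest from *Sh3bp4* (-0.596). *Saa1*, *Saa2* and *Hamp* were at background in all 34 strains, and limma called 0 probe sets for each. Their values here are the ends of a ranking of 13536 genes and do not show shared expression.

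Promoter sequences from RefSeq on GRCm38.p6 matched 5 of the 7 genes, those other than *Hp* and *Orm1*. The 250 bases before the transcription start are shown because *Saa3* and *Lcn2* both rose with the macrophage list, because *Saa1* and *Saa2* are nearly the same sequence, and because *Hamp* stood apart in BXD70. They are *Saa1* at chr7:46742981-46743230 (minus strand), *Saa2* at chr7:46751583-46751832 (plus strand), *Saa3* at chr7:46715677-46715926 (minus strand), *Lcn2* at chr2:32387740-32387989 (minus strand) and *Hamp* at chr7:30944030-30944279 (minus strand), each written in the direction of its gene, with capitals at the motif matches described next.
Saa1: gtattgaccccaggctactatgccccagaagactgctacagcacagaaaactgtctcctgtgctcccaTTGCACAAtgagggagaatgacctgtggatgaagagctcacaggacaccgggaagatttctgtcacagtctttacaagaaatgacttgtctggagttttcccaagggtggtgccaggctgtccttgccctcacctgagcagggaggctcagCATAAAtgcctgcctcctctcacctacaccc
Saa2: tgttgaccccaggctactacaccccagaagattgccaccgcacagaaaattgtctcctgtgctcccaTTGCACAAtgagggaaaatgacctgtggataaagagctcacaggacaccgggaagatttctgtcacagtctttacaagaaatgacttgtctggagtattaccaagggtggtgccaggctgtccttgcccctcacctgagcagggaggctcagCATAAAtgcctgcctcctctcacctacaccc
Saa3: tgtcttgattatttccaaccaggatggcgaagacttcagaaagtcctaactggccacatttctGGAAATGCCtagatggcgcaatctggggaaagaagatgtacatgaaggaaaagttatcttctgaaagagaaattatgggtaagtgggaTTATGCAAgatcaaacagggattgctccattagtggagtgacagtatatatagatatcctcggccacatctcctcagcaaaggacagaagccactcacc
Lcn2: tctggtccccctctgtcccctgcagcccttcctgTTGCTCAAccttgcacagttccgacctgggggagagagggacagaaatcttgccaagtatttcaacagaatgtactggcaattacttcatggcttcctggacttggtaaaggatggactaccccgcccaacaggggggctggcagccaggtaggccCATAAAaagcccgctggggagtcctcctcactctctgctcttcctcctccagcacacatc
Hamp: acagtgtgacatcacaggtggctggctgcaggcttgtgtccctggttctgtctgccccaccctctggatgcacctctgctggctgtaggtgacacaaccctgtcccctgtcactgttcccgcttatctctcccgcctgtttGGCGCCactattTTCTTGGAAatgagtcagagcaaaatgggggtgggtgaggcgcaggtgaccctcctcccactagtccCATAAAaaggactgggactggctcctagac

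A total of 7 motifs were searched on both strands, and the share of 32536 promoters of the same length that hold each is given. The C/EBP letters TTGCNNAA, in 9.57% of promoters, occurred in *Saa1*, *Saa2*, *Saa3* and *Lcn2*, 182, 183, 99 and 216 bases before the start. The STAT letters TTCNNNGAA (7.04%) occurred in *Hamp*, 97 bases before the start, as did GGCGCC (9.65%), the core of elements that respond to bone morphogenetic proteins, 109 bases before it. The letters CATAAA (10.8%) occurred in *Saa1*, *Saa2*, *Lcn2* and *Hamp*, and TATAAA (12.3%) in 0 of the 5. For NF-kB, a form of 10 letters (3 G, 2 free bases, 2 T, 1 free base and 2 C; 4.11%) occurred in 0 of the 5, and a shorter overlapping form, GGNNTTTCC (4.93%), in *Saa3*, 187 bases before the start. The shorter form was added, and the window shortened from 300 to 250 bases, after the matches of the other 6 motifs had been seen. A match is a description of the letters and does not show a bound factor. *Saa1* and *Saa2* were identical at 94.8% of aligned bases, *Saa1* and *Saa3* at 48.9%, and *Hamp* and *Hamp2* at 89.7%.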

How the data were processed

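BAT from 37 strains was measured on Affymetrix arrays, 1 per strain. The authors deposited 1 table of 41345 probe sets whose values are scores, with every array brought to mean 8 and SD 2; the labels name Affymetrix Expression Console. The log base and summary method are not given in the sources used here, so differences are in rescaled units, no folds are given, and tests planned for log values were run on the scores. Removing 190 array controls left 41155 probe sets. Arrays have no read depth; their number limits the precision.

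The genes and lists were chosen with earlier results of these data known. Of 135 list genes 134 were found, *Adgre1* under its older name *Emr1*, and *Cpt1b* was not analysed here. Named genes are the 7, every list gene, and for each of the 7 the 3 highest and 1 lowest r. Others were named after their values were seen. The brightest probe set stood for a gene. Tests used limma 3.58.1 (lmFit, eBayes, two-sided, Benjamini-Hochberg) in R 4.3.3, checked on simulated data, and 100000 two-sided permutations for r and rho in Python 3.11.15 with pandas 2.3.3, scipy 1.17.1 and numpy 2.4.6 (plots by matplotlib 3.10.9). Correlations were computed for 21 pairs and for 56 gene and list combinations. Alternatives changed the strains, scaling, probe sets and covariates, and left out each strain in turn.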

Additional observations from a re-analysis of the deposited data

How the results depend on the processing

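No paired analysis was possible because each strain has 1 array and the replicate numbers, given in the order of the arrays, pair nothing. The macrophage list as a second covariate was chosen after seeing the data. The call of *Saa3* on the macrophage list held under all 12 alternatives (adjusted p up to 0.0399) and with each strain left out (up to 0.0252). The number of pairs called was 2 with BXD70 included and 2 with dim probe sets left out, where fewer probe sets are adjusted over and the 7 genes were kept, dim or not; with single strains left out it ran from 0 to 2, being 2 without BXD71 and 1 without BXD75. The pathway count of 9 became 18 with BXD70 (4 of the 9 and 14 other relations, 10 of these with *Hamp*), 14 with both parents, 5 with arrays centred on their median, 15 without dim probe sets, 2 without the 2 farthest strains and 0 with the macrophage list as a second covariate, and ran from 4 to 12 with single strains left out, 4 being without BXD61 or BXD97. Calls over all probe sets moved too. For *Hp*, *Saa3*, *Lcn2* and *Orm1* in that order, the main fits called 139, 289, 644 and 168 of 41154. With BXD70 they called 118, 10, 76 and 161, and *Hamp* called 270. With both parents they called 115, 473, 729 and 340, and *Saa2* called 25. Median centring gave 73, 239, 346 and 161, and dim probe sets left out 347, 687, 996 and 349 of 19459. Without the 2 farthest strains they were 56, 192, 78 and 3, and with the macrophage list 0, 0, 4 and 47. The liver list called 2 genes with BXD70 and 1 with both parents, in fits that called 278 and 87 of 41155 probe sets. The macrophage list called 1 without the 2 farthest strains, where 880 of 41155 probe sets were called, and from 1 to 2 with single strains left out. The white fat list called 1 with the muscle list as a second covariate (241 of 41155 probe sets called) and 1 without dim probe sets (1068 of 19460). With single strains left out it called from 0 to 1. The muscle list also ran from 0 to 1, with 1 without BXD55 or BXD81. At 2 units above the median, 1 gene was raised in BXD70 and 0 in DBA/2J, and 1 in DBA/2J lay above all 34 strains, as did 1.47% of all probe sets. The share of all probe sets at 2 units was not computed. With the macrophage list as a second covariate the slopes of its own genes *Csf1r* and *Emr1* on *Lcn2* (adjusted p = 0.991 and 0.967) and of *Emr1* on *Saa3* (0.999) turned sign. Of 389 values for single relations and ranges under alternatives, 281 were counted as the same, 100 lost the call, 3 gained it, 2 moved and 3 turned sign. A relation counted as the same where it kept its side of the threshold, and a range where it changed by less than its SD. Since each of the 7 genes has 1 probe set, their ranges could not change under the mean of probe sets. The losses include macrophage genes adjusted for the list that holds them, which could hardly keep a call. Of 952 with a strain left out, 806 were the same, 143 lost the call and 3 gained it. The cause of these changes was not tested. Nearly all relations in these tallies were called in the main fits, so only *Lcn2* on *Hp* and on *Saa3* could gain a call. Relations called only under an alternative or with a strain left out, such as *Slc40a1* on *Orm1*, were not in the tallies. Leaving out single strains ended the call of *Hp* on *Lcn2* for 8 strains and that of *Saa3* on *Lcn2* for 21. Signal over background limits *Saa1*, *Saa2*, *Hamp* and most *Saa3* values.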
